A study of Mus musculus with 56 samples.

Results

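Foxp3 and 6 further genes that belong to the usual identity of regulatory T cells (Tregs) were followed over tissue, diet, time and culture: Ikzf2, Ikzf4, Gpr83, Capg, Nrp1 and Izumo1r. They were taken by symbol, as 7 of the 55011 genes in the count table. The table comes from a series on Treg transcription in obesity and holds 56 RNA sequencing libraries of Tregs from C57BL/6 mice, each made from 1000 sorted cells. The 51 ex vivo libraries came from vTreg53 Tg+ mice, which carry a transgenic T cell receptor, so that every sorted cell bore the transgenic clonotype. These mice were 12 weeks old when the diets, labelled NCD and HFD, began. They were sampled at week 0, before any diet, or after 2, 4, 8 or 16 weeks of either diet. Clonotype-bearing Tregs were sorted from spleen (26 libraries) and from visceral adipose tissue (VAT, 25 libraries), in 9 groups per tissue. Each group had 3 libraries except spleen NCD week 4, VAT HFD week 4 and VAT NCD week 16, which had 2. The labels speak of recipient mice, and which other cells those mice held was not stated.

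The 5 culture libraries came from another line, Foxp3-GFP KI/y with PPARgamma-tdT KI/KI, aged 8 to 10 weeks and given IL-33 before the VAT Tregs positive for the PPARγ reporter were sorted. Culture lasted 3 days, in 2000 U/ml IL-2 and 10 ng/ml IL-33 throughout, without further cytokine (3 libraries) or with 50 ng/ml interferon-α (IFNα, 2 libraries). After culture, cells positive for the Foxp3 reporter were sorted, so all 5 libraries were gated on the knock-in Foxp3 allele.

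Tregs are CD4 T cells that restrain other immune cells. Foxp3 is the transcription factor that fixes their fate and keeps their programme on. Helios and Eos, the zinc finger factors encoded by Ikzf2 and Ikzf4, belong to the Ikaros family and work beside Foxp3, Eos as a corepressor at genes that Foxp3 silences. Gpr83 encodes a G protein-coupled receptor and Izumo1r the folate receptor 4, both Treg surface proteins that are high in lymphoid Tregs. Nrp1 encodes neuropilin-1, a coreceptor for semaphorins and vascular endothelial growth factor that steadies Treg function. Capg encodes a protein that caps actin filaments and is high in effector Tregs. VAT Tregs are a tissue population that depends on IL-33 and the lipid-sensing receptor PPARγ.

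Gene positions are those of GENCODE M21 in mm10, the build of the deposited counts. Gpr83 (chromosome 9, 14860210 to 14870789, plus strand) and Izumo1r (chromosome 9, 14885814 to 14903949, minus strand) are neighbours that point toward each other, with 15024 bases and 0 annotated genes between them. Foxp3 lies on chromosome X (7573644 to 7595245) and has 4577 exon bases. Their overlaps with exons of overlapping genes, among them Flicr, Ppp1r3f and Ccdc22, sum to 2082 bases. A base shared with more than 1 of these genes counts more than once in that sum. The sources used here do not give the strand setting of the counting, so a part of the Foxp3 counts could belong to those genes. Ikzf2 lies on chromosome 1 (69531214 to 69687245), Ikzf4 on chromosome 10 (128630843 to 128645991), Capg on chromosome 6 (72544391 to 72562983) and Nrp1 on chromosome 8 (128358604 to 128503363). The RefSeq promoter table (GRCm38.p6) held 5 of the 7 genes, all but Ikzf2 and Ikzf4.

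Upstream sequences are shown for the neighbouring pair, which had the largest deficits in VAT, and for Capg, which had the largest excess there. They are written in the direction of each gene, cover the 250 bases before a RefSeq start less any annotated exon, and carry the Ikaros core TGGGAA in capitals.
Gpr83, chr9:14859960-14860209, plus strand: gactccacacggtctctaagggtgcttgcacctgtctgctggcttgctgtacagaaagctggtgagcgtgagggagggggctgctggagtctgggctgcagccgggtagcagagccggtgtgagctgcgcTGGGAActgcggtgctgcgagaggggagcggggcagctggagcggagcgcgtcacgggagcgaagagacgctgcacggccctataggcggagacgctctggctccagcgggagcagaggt
Izumo1r, chr9:14903950-14904017, minus strand: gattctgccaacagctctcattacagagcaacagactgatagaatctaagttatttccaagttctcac
Capg, chr6:72549502-72549646, plus strand: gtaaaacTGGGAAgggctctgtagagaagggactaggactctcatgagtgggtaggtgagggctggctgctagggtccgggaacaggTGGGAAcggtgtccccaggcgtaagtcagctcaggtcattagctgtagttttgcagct
The core began 120 bases before the Gpr83 start and 138 and 58 bases before the RefSeq start of Capg. That start, at 72549647, lies inside the GENCODE gene, which begins at 72544391, so the Capg sequence is intragenic. Of the 250 bases of its window, 105 lie in annotated exons. It was absent, on either strand, from the windows of Izumo1r, Nrp1 and Foxp3. These letters occur in 21.6% of the 32851 promoter windows of the same length, so a match describes the sequence and is no evidence of binding. Of the 7 other patterns searched on both strands, 3 were found. Foxp3 had a window before each of its RefSeq starts at 7579676 and 7580483, with all 250 bases of each in annotated exons. Only the window before 7580483 held TGTTTNC, a loose forkhead pattern (in 17.8% of all windows), overlapping TTCNNNGAA, a STAT pattern (7.02%). The exonic portion of the Izumo1r window held TGTGGT, a Runx core (14.0%). The 4 not found in any window of the 5 genes were TGTTTAC (strict forkhead, 3.17%), TGANTCA (AP-1, 6.75%), TGACGTCA (CRE, 1.55%) and CCGGAA (ETS, 12.0%).

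Library totals lay between 3248686 and 6091439 counts ex vivo and between 5408696 and 8764390 in culture. Levels are given in CPM (counts scaled to the library total), where the detection floor of 3 counts equals 0.492 to 0.923 CPM ex vivo. A change is a log2 fold change ± SE, tested by quasi-likelihood in edgeR and called where the p adjusted over all genes tested (Benjamini-Hochberg) is under 0.05. The labels do not say that replicates are separate mice, and p-values therefore measure only the spread between these libraries, which may be technical. Cd4 was at 469 to 628 CPM in VAT and 567 to 718 CPM in spleen, and the macrophage list stayed at or under 12.4 CPM in VAT and 27.8 CPM in spleen. The B cell list ran from 320 through a median of 1445 to 6089 CPM in VAT and from 1296 through 1860 to 4581 CPM in spleen. Its highest VAT sums were in the NCD libraries labelled 2 of week 2 (6089 CPM) and week 4 (5844 CPM). The part of B cells in the results was not tested. Immediate early and heat shock genes, which respond within minutes to handling or activation, averaged 3.38 to 4.13 on the log2 CPM scale in spleen and 6.31 to 8.39 in VAT. Libraries are bulk samples, in which fewer cells with a transcript and less transcript per cell cannot be told apart.

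The first comparison set VAT beside spleen Tregs in the absence of HFD (week 0 and all NCD weeks, 14 libraries per tissue). All 7 genes differed between the tissues, where 59.1% of all genes were called. In VAT 3 were higher, against 29.1% of all genes, and 4 lower, against 30.0%. Foxp3 ran from 701 CPM through a median of 746 to 867 CPM in spleen and from 903 through 959 to 1066 CPM in VAT. The tissues did not overlap, and Foxp3 was higher in VAT by 0.54 ± 0.039 (edgeR adjusted p = 1.2e-16). Ikzf2 ran from 890 through 1088 to 1804 CPM in spleen and from 1309 through 1406 to 1898 CPM in VAT. Here the ranges overlapped, since single spleen libraries reached VAT levels, and the difference was 0.56 ± 0.078 (edgeR adjusted p = 9.66e-08).

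Ikzf4, the other Ikaros-family gene, went the opposite way. It ran from 104 through 129 to 165 CPM in spleen and from 30.4 through 42.6 to 75.5 CPM in VAT, with no overlap (-1.36 ± 0.078, edgeR adjusted p = 9.82e-20). Capg ran from 312 through 430 to 567 CPM in spleen and from 964 through 1086 to 1226 CPM in VAT (1.56 ± 0.077, edgeR adjusted p = 6.77e-21). The actin-capping gene was thus the member with the largest excess in VAT.

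The 3 surface receptors were all lower in VAT. Gpr83 ran from 115 through 283 to 344 CPM in spleen and from 0.585 through 7.73 to 19.9 CPM in VAT (-4.69 ± 0.30, edgeR adjusted p = 1.07e-15). The lowest VAT value stood on 3 counts, in an NCD week 8 library. Izumo1r ran from 718 through 857 to 978 CPM in spleen and from 82.3 through 143 to 207 CPM in VAT. Its difference of -2.45 ± 0.067 (edgeR adjusted p = 1.48e-31) ranked 6th by p among the 15601 genes tested. Nrp1 ran from 418 through 518 to 657 CPM in spleen and from 189 through 263 to 345 CPM in VAT (-0.80 ± 0.088, edgeR adjusted p = 2.99e-10). None of these 3 genes overlapped between the tissues.

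Per kilobase of exon, the order of the genes also differed between tissues. In spleen without HFD, Izumo1r led with 371 ± 30.9 CPM per kb (SD, n = 14), ahead of Capg at 171 and Foxp3 at 168 ± 12.3. In VAT, Capg led at 432 ± 29.6 CPM per kb (SD, n = 14), Foxp3 followed at 211 ± 10.3 and Izumo1r was at 61.2 ± 13.1. Gpr83 was last among the 7 in VAT, at 1.84 ± 1.07 CPM per kb, and Ikzf4 next to last, at 7.71 ± 2.21.

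With HFD all 7 genes again differed between the tissues in the same directions, where 47.4% of all genes were called. Izumo1r was lower in VAT by 1.62 ± 0.072 on the log2 scale and Ikzf4 by 0.88 ± 0.085, while Foxp3 was higher by 0.56 ± 0.042 (edgeR adjusted p = 2.1e-23, 5.82e-12 and 2.21e-15). The immediate early genes separated the tissues as fully as these genes did. With their mean as a covariate, 0 of the 7 members were called in either comparison. Only 6 of 15601 genes were called without HFD and 11 with it. The part of handling or activation genes in the tissue difference therefore cannot be told apart. Scaling also mattered. By library totals alone, the median of all genes moved from -0.04 to -0.26 without HFD and the share of calls that were higher in VAT from 49.2% to 32.2% (with HFD from 47.0% to 26.1%), and the 7 calls and directions were kept, Foxp3 at 0.33 and Ikzf2 at 0.34.

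**Figure D1:**
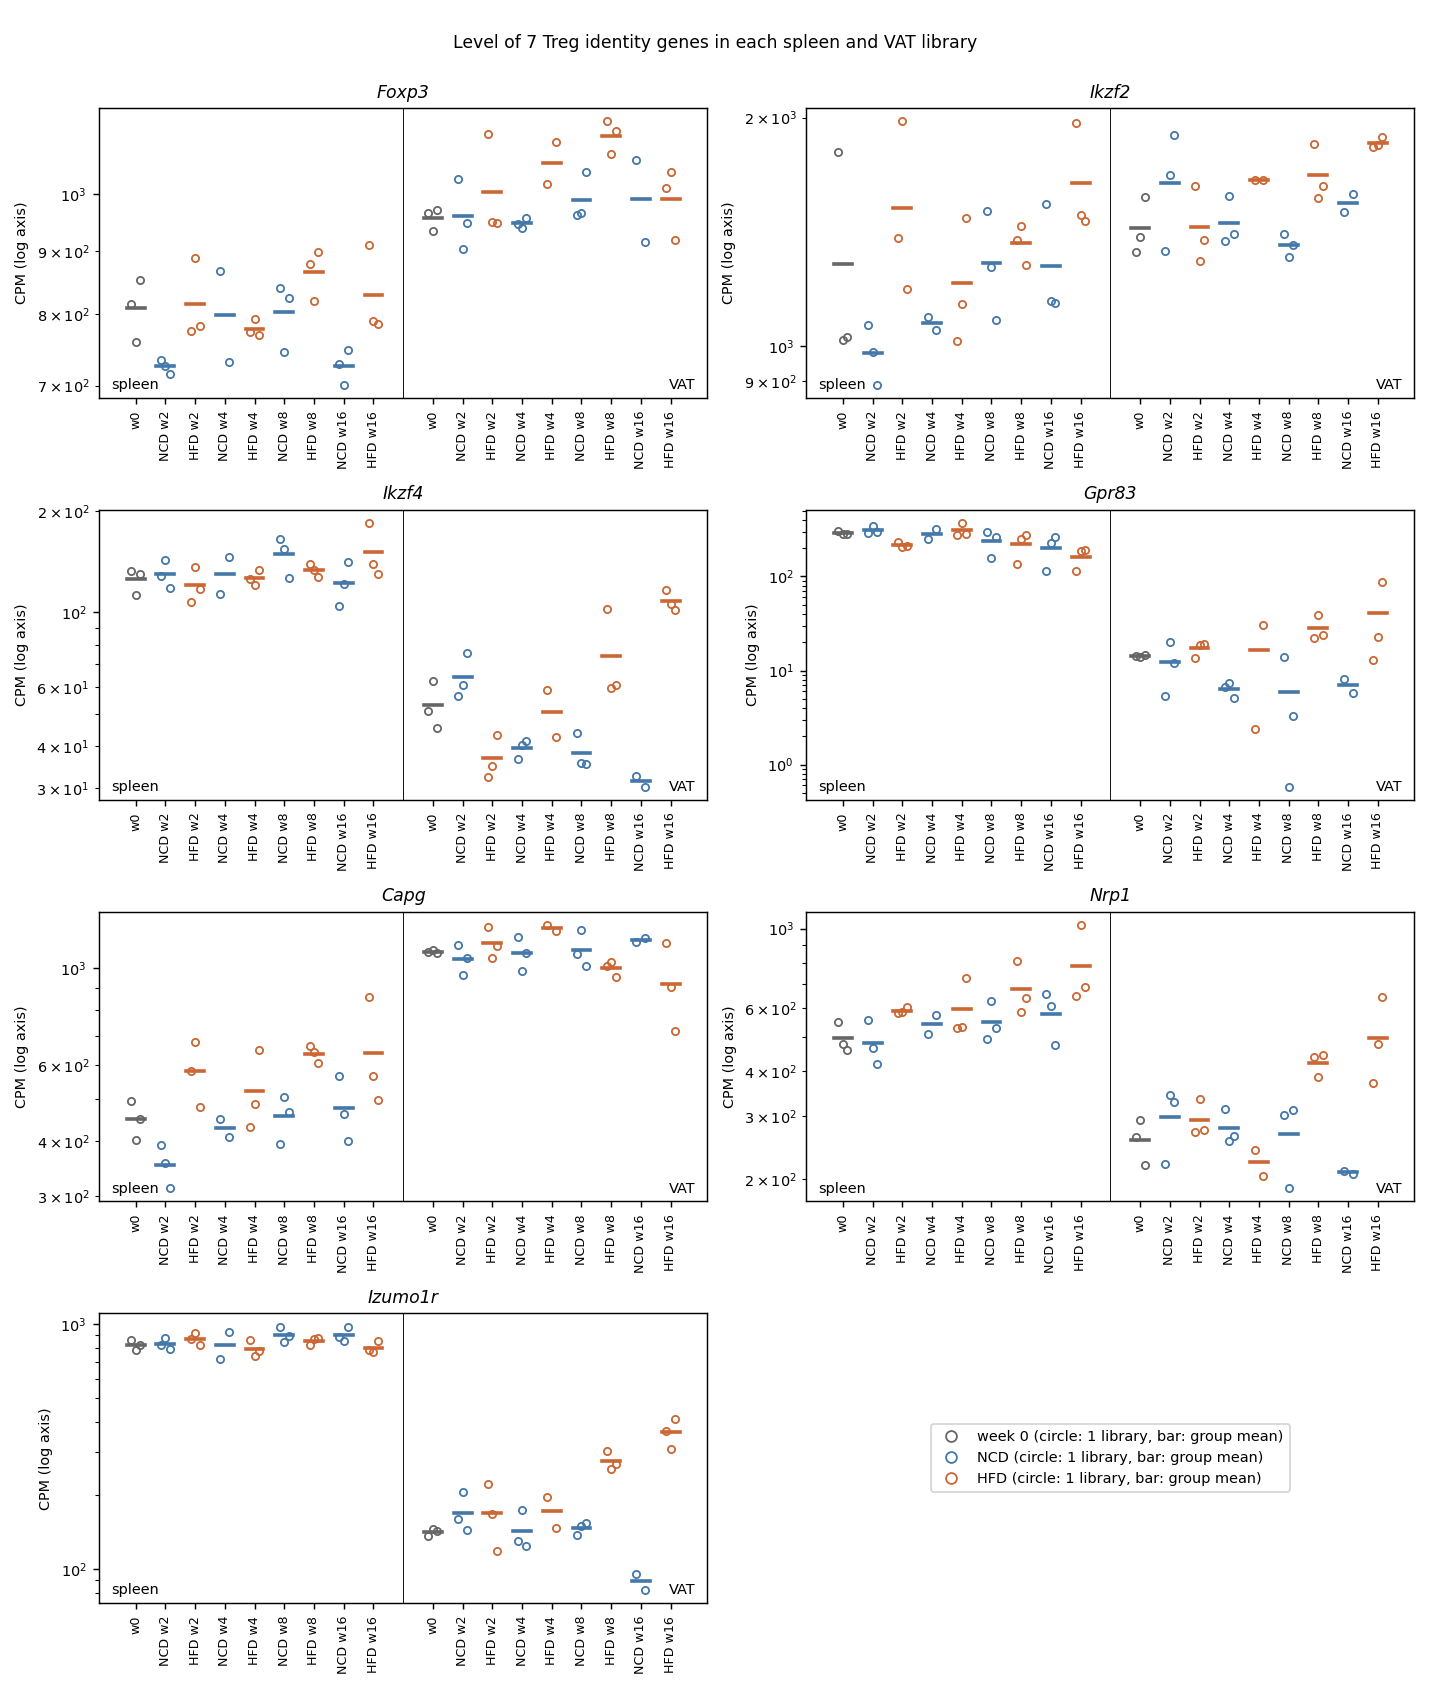
Level of each gene in the 51 ex vivo libraries, in CPM on a log axis whose range differs between panels. Each circle is 1 library and each bar a group mean, spleen on the left and VAT on the right of each panel, and in the Izumo1r panel the VAT libraries run from 82.3 to 411 CPM, all below the spleen libraries at 718 CPM and above.

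The diet comparison asks how HFD changed VAT Tregs at each time. Izumo1r and Ikzf4 rose with HFD at weeks 8 and 16, and Nrp1 at week 16. At weeks 2 and 4, edgeR called 0 of the 7 genes, against 0.0565% and 0.0212% of all genes. At unadjusted p under 0.05 there were 1 and 2 members, against 1429 and 1385 of all 14164 genes. DESeq2 called 0 members at both times, against 70 and 53 of all genes. At week 2 Ikzf4 was at 56.2, 61.0 and 75.5 CPM with NCD and at 32.5, 35.0 and 43.1 CPM with HFD, a difference of -0.70 ± 0.19 that did not pass (edgeR adjusted p = 0.175). The groups did not overlap, with HFD the lower, as for 11.9% of all genes at that week. At week 4 HFD libraries lay above every NCD library for 4 of the 7 genes, against 9.91% of all genes, and below for Nrp1, against 16.8%.

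At week 8, 2 of the 7 genes were called, where 1.33% of all genes were called, and both were higher with HFD, against 0.833% of all genes. Izumo1r was at 138, 150 and 155 CPM with NCD and at 256, 269 and 303 CPM with HFD. The gap between the groups exceeded the spread within each, and the change was 0.88 ± 0.17 (edgeR adjusted p = 0.00787). Ikzf4 was at 35.4, 35.7 and 43.7 CPM with NCD and at 59.5, 60.9 and 102 CPM with HFD (0.92 ± 0.19, edgeR adjusted p = 0.0104). The high HFD library carried part of this change, which without it was 0.65 (adjusted p = 0.128), and without the NCD library labelled 2 the adjusted p was 0.0763. Without that same HFD library Izumo1r was at 0.82 (adjusted p = 0.0522). Nrp1 was at 189, 303 and 312 CPM with NCD and at 385, 437 and 444 CPM with HFD, with no overlap, and did not pass (0.63 ± 0.19, edgeR adjusted p = 0.0998). In all, HFD libraries lay above every NCD library for 6 of the 7 genes at week 8, against 9.86% of all genes.

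At week 16 Izumo1r, Ikzf4 and Nrp1 rose with HFD and Capg fell, 4 of 7 genes where 9.24% of all genes were called (4.31% higher and 4.93% lower). Izumo1r was at 82.3 and 96.0 CPM with NCD and at 311, 368 and 411 CPM with HFD. Every HFD library was above every NCD library, and the change of 1.91 ± 0.20 (edgeR adjusted p = 9.8e-07) ranked 8th by p among 14164 genes. Ikzf4 was at 30.4 and 32.6 CPM with NCD and at 101, 106 and 116 CPM with HFD (1.66 ± 0.22, edgeR adjusted p = 1.44e-05). Of the HFD libraries 2 thus lay within the spleen range without HFD, which began at 104 CPM, and 1 just below it. Nrp1 was at 208 and 211 CPM with NCD and at 372, 475 and 643 CPM with HFD (1.13 ± 0.22, edgeR adjusted p = 0.0013).

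Capg was at 1147 and 1175 CPM with NCD and at 717, 906 and 1143 CPM with HFD at week 16. The highest HFD library nearly met the NCD libraries, and the change was -0.45 ± 0.13 (edgeR adjusted p = 0.0242). This call was lost without either NCD library (adjusted p = 0.0967 and 0.158), without the HFD library labelled 2 (0.0529) or 3 (-0.30, 0.14), and by library totals alone (-0.33, 0.101). Gpr83 was at 5.80 and 8.12 CPM with NCD and at 13.1, 22.6 and 86.6 CPM with HFD. The groups did not overlap, but 1 HFD library stood far above the other 2, and the change did not pass (2.41 ± 0.97, edgeR adjusted p = 0.147). HFD libraries lay above every NCD library for 5 of the 7 genes, against 24.6% of all genes, and below for 1, against 12.9%.

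The lineage factor itself did not pass at any week. Foxp3 was at 916 and 1066 CPM with NCD and at 918, 1011 and 1042 CPM with HFD at week 16, so the diets overlapped (-0.12 ± 0.097, edgeR adjusted p = 0.548). At week 8 it was at 962, 966 and 1042 CPM with NCD and at 1077, 1125 and 1145 CPM with HFD, with no overlap and a difference of 0.15 (edgeR adjusted p = 0.489). Ikzf2 was at 1504 and 1588 CPM with NCD and at 1830, 1841 and 1888 CPM with HFD at week 16, without overlap in CPM. Its difference after normalization was 0.14 ± 0.11 (edgeR adjusted p = 0.512).

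Other measures moved together with these week 16 groups. The immediate early and heat shock mean was at 8.32 to 8.39 with NCD and 6.31 to 7.31 with HFD on the log2 CPM scale. With that mean as a covariate the same 4 genes were called, at 1.77 for Izumo1r, 1.5 for Ikzf4, 1.63 for Nrp1 and -0.89 for Capg (adjusted p = 0.0175, 0.0487, 0.0372 and 0.0431). Over all genes 193 were called with the covariate and 1309 without it. The B cell list of 9 genes summed to 320 to 334 CPM with NCD and 1646 to 2456 CPM with HFD. Nearly all of it was Ighm (1626 to 2425 CPM with HFD), while Pax5 was at 0 in all 3 HFD libraries and Cd79a was at or under 1.42 CPM. The endothelial list of 5 genes summed to 30.8 to 34.2 CPM with NCD and 77.7 to 142 CPM with HFD. In all HFD libraries Cdh5 and Kdr were at 0, so the sum there was that of Pecam1, Vwf and Esam. The list of 7 helper T cell genes summed to 33.6 to 50.8 CPM with NCD and 49.1 to 96.8 CPM with HFD, and its follicular marker Cxcr5 went from 1.38 to 1.40 CPM with NCD to 21.0 to 62.2 CPM with HFD. The parts of these cell types in the result were not tested. By library totals alone, the median of all genes at week 16 moved from 0.02 to 0.14 and the share of calls that were higher from 46.7% to 63.4%, with Izumo1r at 2.03, Ikzf4 at 1.77 and Nrp1 at 1.25, all called.

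Whether the diet effect in VAT differed among the 4 weeks was tested directly. It did for 4 of the 7 genes, where 6.42% of all genes were called: Ikzf4, Izumo1r, Nrp1 and Capg (edgeR adjusted p = 6.17e-05, 2.95e-04, 0.0168 and 0.0235). It did not pass for Foxp3 (0.312), Ikzf2 (0.292) or Gpr83 (0.697). The calls of Capg and Nrp1 were lost without either NCD week 16 library, that of Nrp1 also without the HFD week 4 library labelled 3 (adjusted p = 0.0565), and that of Capg by library totals alone (adjusted p = 0.143). With the immediate early and heat shock mean as a covariate, 0 of the 7 were called. Over all genes 117 were called with the covariate and 910 without it. As the mean of the 4 weeks, 4 genes were called, where 4.2% of all genes were called, and all 4 rose, against 2.34%. Besides Izumo1r these were Ikzf4 (0.57 ± 0.10, edgeR adjusted p = 8.63e-04), Nrp1 (0.40 ± 0.10, 0.023) and Gpr83 (1.66 ± 0.44, 0.0419). Without week 16, Izumo1r alone stayed called, at 0.44 (adjusted p = 0.0321), and without the HFD week 4 library labelled 3 Gpr83 was at 0.95 (adjusted p = 0.395). The Gpr83 call was lost in 16 of the 22 fits that left out 1 library. That of Nrp1 was lost in 3, without either NCD week 16 library (0.0656 and 0.0644) or the HFD week 4 library labelled 2 (0.0776).

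**Figure D2:**
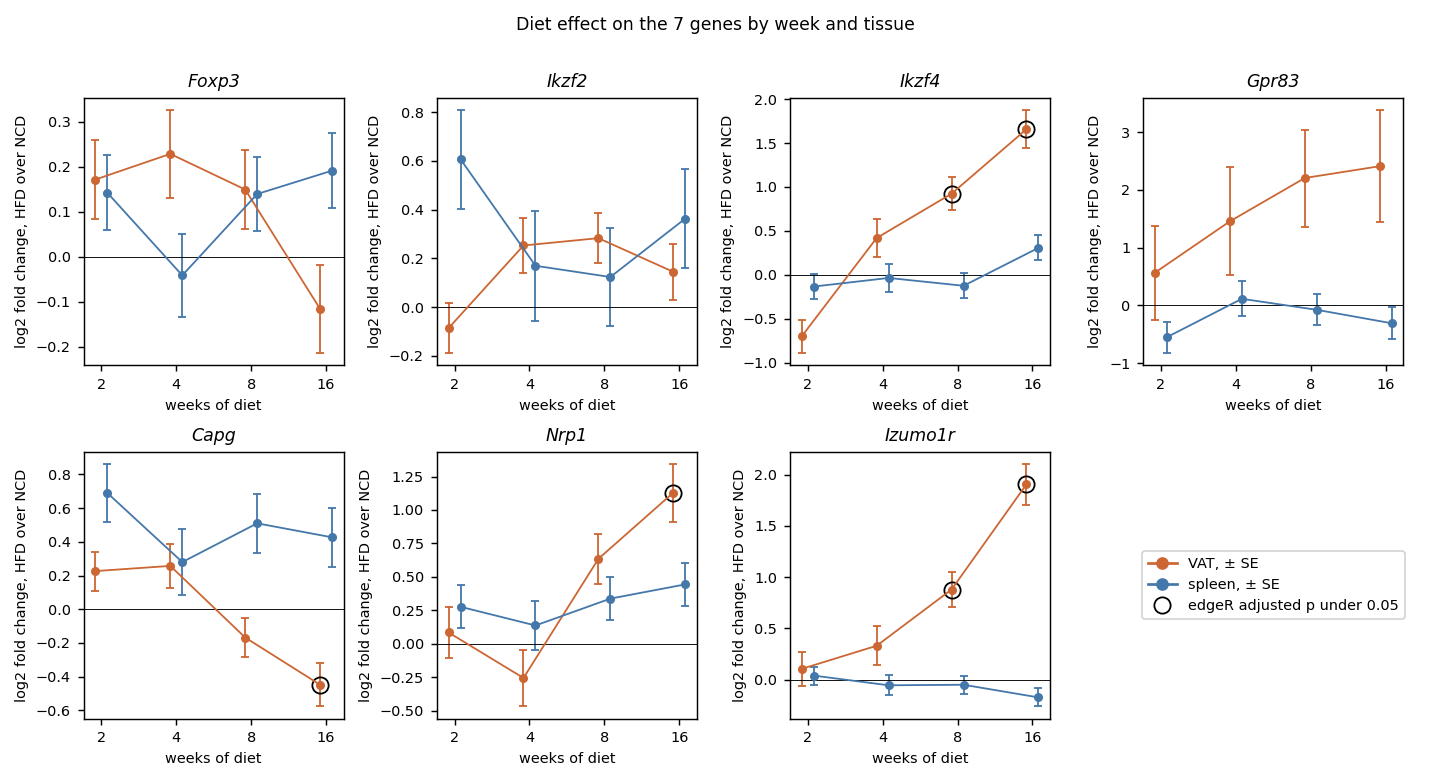
Diet effect on each gene by week, as the log2 fold change of HFD against NCD ± SE, VAT in orange and spleen in blue; a black ring marks an edgeR adjusted p under 0.05. In VAT the Izumo1r effect reaches 0.88 at week 8 and 1.91 at week 16, while no single week of the spleen carries a ring.

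Each diet arm of VAT was also followed over time, from week 2 with HFD and from week 0, before any diet, with NCD, so the arms had different starting points. With HFD, week 16 against week 2 was called for 4 of the 7 genes, where 7.3% of all genes were called. Ikzf4 was higher at week 16 by 1.43 ± 0.19, Izumo1r by 0.97 ± 0.17 and Nrp1 by 0.63 ± 0.19, and Capg was lower by 0.43 ± 0.12 on the log2 scale (edgeR adjusted p = 2.43e-05, 5.22e-04, 0.0404 and 0.02). Nrp1 lost its call without the HFD week 16 library labelled 3 (0.39, adjusted p = 0.261) or 2 (0.0722) and without the HFD week 2 library labelled 1 (0.149) or 3 (0.136). Capg lost its call without the HFD week 16 library labelled 3 (-0.29, 0.131) or the HFD week 2 library labelled 1 (0.107), and by library totals alone (-0.31, 0.0947). With NCD, week 16 against week 0 was called by edgeR for 0 of the 7, against 0.713% of all genes. At unadjusted p under 0.05 there were 2, Ikzf4 (-0.70, adjusted p = 0.124) and Izumo1r (-0.62, adjusted p = 0.133), against 1861 of all 14164 genes. DESeq2 called 0 members, against 323 of all genes. From NCD week 2 to week 16, which was not tested, Ikzf4 averaged 64.2 ± 10.0 CPM at the start and 31.5 ± 1.60 CPM at the end (SD over 3 and 2 libraries), and Izumo1r 170.2 ± 32.6 and 89.2 ± 9.67 CPM. Izumo1r was at 136, 143 and 146 CPM at week 0, so both NCD week 16 libraries lay below it and all 3 HFD week 16 libraries above it. The order of its VAT groups ended with HFD week 8 at 276 ± 24.4 CPM (SD, n = 3) and HFD week 16 at 363 ± 50.5 CPM (SD, n = 3), neither of which overlapped with the group below it.

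In spleen no member passed at a single week. At weeks 2, 4, 8 and 16, edgeR called 0 of the 7 genes, where 0.0272%, 1.24%, 0.0% and 0.0% of all genes were called. At unadjusted p under 0.05 there were 2, 0, 2 and 4 members, against 1402, 1414, 716 and 975 of all 14686 genes. DESeq2 called 1, 0, 0 and 0 members, against 28, 302, 7 and 16 of all genes. HFD libraries lay above every NCD library for 4 of the 7 genes at week 2, against 7.36% of all genes, and below for 1, against 6.07%. At week 4 all 7 overlapped between the diets, and at weeks 8 and 16 HFD lay above for 1 gene each, against 5.31% and 4.89% of all genes. As the mean of the 4 weeks only Capg was called in edgeR, against 0.933% of all genes. Capg in spleen ran from 312 through 430 to 567 CPM without HFD and averaged 595 ± 116 CPM (SD, n = 12) with it. At week 2 it was at 312, 356 and 392 CPM with NCD and at 481, 580 and 678 CPM with HFD, and these did not overlap. The mean effect on Capg was 0.48 ± 0.090 (edgeR adjusted p = 0.0134), lost without the NCD week 4 library labelled 2 (0.059), while DESeq2 called 3 members. Of all genes, DESeq2 called 375 for the spleen mean. In edgeR, Nrp1 (0.30 ± 0.083, edgeR adjusted p = 0.0819) and Ikzf2 (0.32 ± 0.10, 0.156) did not pass. Izumo1r, at 853, 887 and 976 CPM with NCD and 769, 786 and 853 CPM with HFD at week 16, had a mean effect of -0.06. Over time, edgeR called 0 of the 7 in spleen both for NCD week 16 against week 0 (0.654% of all genes) and for HFD week 16 against week 2 (0.0%). At unadjusted p under 0.05 there were 0 and 2 members, against 1452 and 1108 of all 14686 genes. DESeq2 called 0 members, against 263 and 24 of all genes.

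The diet effect in VAT less that in spleen was then tested in a fit of both tissues. At weeks 2 and 4, edgeR called 0 of the 7, against 0.00641% and 0.513% of all genes. At unadjusted p under 0.05 there were 3 and 1 members, against 1321 and 1722 of all 15601 genes. DESeq2 called 0 members, against 13 and 217 of all genes. At week 8, 2 genes were called where 0.455% of all genes were: Ikzf4 by 1.05 ± 0.23 and Izumo1r by 0.93 ± 0.19 (edgeR adjusted p = 0.0219 and 0.0134). Of 12 fits that left out 1 library, Ikzf4 lost its call in 5, among them that without the VAT HFD library labelled 1 (0.78, adjusted p = 0.168), and Izumo1r in 2, without the VAT NCD library labelled 2 (0.0525) or the spleen HFD library labelled 1 (0.051). At week 16, 3 genes were called where 4.46% of all genes were. Izumo1r differed by 2.05 ± 0.21 (edgeR adjusted p = 5.10e-09), ranked 2nd by p among 15601 genes, Ikzf4 by 1.32 ± 0.25 (4.87e-04) and Capg by -0.90 ± 0.24 (0.0167). Capg lost this call in 5 of 11 fits that left out 1 library, the smallest difference being -0.62 (adjusted p = 0.122) without the spleen HFD library labelled 1. With the immediate early and heat shock mean as a covariate Izumo1r alone stayed called, with Ikzf4 at 1.35 (adjusted p = 0.0554) and Capg at -0.88 (0.323). Over all genes 165 were called with the covariate and 696 without it. By library totals alone the share of week 16 calls that were higher moved from 48.0% to 68.6%.

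As the mean of the 4 weeks, 4 genes differed where 2.44% of all genes did: Izumo1r by 0.85 ± 0.10, ranked 1st by p, Gpr83 by 1.84 ± 0.42, Ikzf4 by 0.56 ± 0.12 and Capg by -0.52 ± 0.12 (edgeR adjusted p = 8.46e-07, 0.0138, 0.0061 and 0.0101). Gpr83 lost this call without the VAT HFD week 4 library labelled 3 (1.13, adjusted p = 0.389), and without week 16 none of the 4 was called (Izumo1r 0.45, adjusted p = 0.0613). Described by level, the VAT deficit of Izumo1r against spleen at week 16 went from -3.06 with NCD to -1.01 with HFD on the log2 scale. That of Ikzf4 went from -1.65 to -0.33, that of Gpr83 from -4.43 to -2.27 and that of Nrp1 from -1.17 to -0.53. The excess of Capg went from 1.58 to 0.68, that of Foxp3 from 0.73 to 0.40 and that of Ikzf2 from 0.58 to 0.33. Of these week 16 differences those of Izumo1r, Ikzf4 and Capg passed. At earlier weeks some gaps were wider with HFD: that of Ikzf4 at week 2 (-0.85 with NCD and -1.42 with HFD), that of Nrp1 at weeks 2 and 4 (-0.75 and -1.13 at week 4), that of Ikzf2 at weeks 4 and 8 and that of Foxp3 at weeks 2, 4 and 8 (0.47 and 0.72 at week 4).

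**Figure D3:**
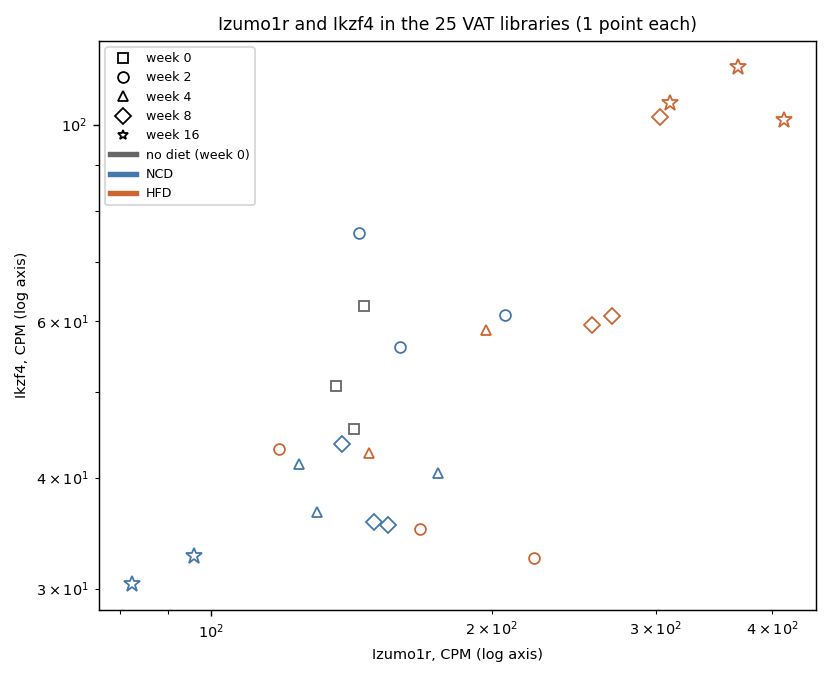
Ikzf4 against Izumo1r in the 25 VAT libraries, in CPM on log axes, with diet by colour and week by symbol; each point is 1 library. The 3 HFD week 16 libraries, at 311 to 411 CPM of Izumo1r and 101 to 116 CPM of Ikzf4, and 1 HFD week 8 library lie at the upper right, and the 2 NCD week 16 libraries at the lower left.

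The 7 genes did not move as 1 block across VAT libraries. Over the 25 libraries Ikzf4 and Izumo1r had a Pearson r of 0.76, which was -0.15 for their deviations from the group means, so the relation lay between groups. The same held for Nrp1 and Izumo1r, at 0.76 and 0.08. Capg and Nrp1 went opposite ways both overall (-0.79) and within groups (-0.70). These are descriptions over libraries that share groups and depth. Among the 8550 genes that averaged 3 or more on the log2 CPM scale, the 3 whose means over the 18 ex vivo groups were most like those of Foxp3 were Tnfrsf18, Ctla4 and Nceh1 (r = 0.98 each). For Izumo1r they were Fam169b, Fam49a and Cd27 (0.99, 0.99 and 0.98), and for Ikzf4 Mical3, Uba7 and Igf1r (0.98, 0.97 and 0.97). Those of Gpr83 were Hmgn1, H2-T24 and Il6st, those of Capg Il12rb1, Glrx and Atp2b4 (0.99 each), those of Nrp1 Tapbp, Gpr15 and Zc3h12d (0.99, 0.97 and 0.97) and those of Ikzf2 Cysltr2, Pon3 and Lima1 (0.96 each). These likenesses span both tissues, and over the 25 VAT libraries alone r was lower for each pair, from 0.40 for Ikzf2 with Lima1 to 0.91 for Ikzf4 with Mical3. It was 0.82, 0.64 and 0.71 for Foxp3 with Tnfrsf18, Ctla4 and Nceh1.

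IFNα was added to cultured VAT Tregs to see how the interferon acts on them. Foxp3, Gpr83 and Capg fell and Ikzf4 rose, 4 of 7 genes where 21.7% of all genes were called. Foxp3 was at 1186, 1228 and 1238 CPM without IFNα and at 538 and 556 CPM with it. The 2 treated libraries lay below every other library of the series, and the change was -1.11 ± 0.073 (edgeR adjusted p = 2.82e-10). The cells had been sorted on the Foxp3 reporter after culture, so all of them still had reporter signal. Ikzf4 was at 305, 343 and 355 CPM without and at 631 and 654 CPM with IFNα, the highest values of this gene in the series (0.98 ± 0.079, edgeR adjusted p = 7.47e-09). Transcripts of Eos thus rose in the same libraries in which those of its partner Foxp3 fell.

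Gpr83 was at 68.5, 85.7 and 100.2 CPM without and at 51.6 and 55.9 CPM with IFNα (-0.61 ± 0.14, edgeR adjusted p = 0.00365). Capg was at 1163, 1249 and 1310 CPM without and at 890 and 896 CPM with it (-0.43 ± 0.073, edgeR adjusted p = 1.80e-04). For both genes the groups did not overlap. Ikzf2 (-0.21, edgeR adjusted p = 0.0583) and Nrp1 (-0.24, 0.0598) did not pass, and by library totals alone both did (-0.25 and -0.28, 0.0194 and 0.0275). Izumo1r was at 385, 489 and 496 CPM without and at 390 and 418 CPM with IFNα, overlapping (-0.13, edgeR adjusted p = 0.370). The dendritic cell list of 8 genes summed to 91.9 to 131 CPM without and 922 to 948 CPM with IFNα. Nearly all of it was the interferon-responsive gene Bst2 (889 to 908 CPM with IFNα), and Clec9a and Siglech were at 0 in all 5 cultures.

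**Figure D4:**
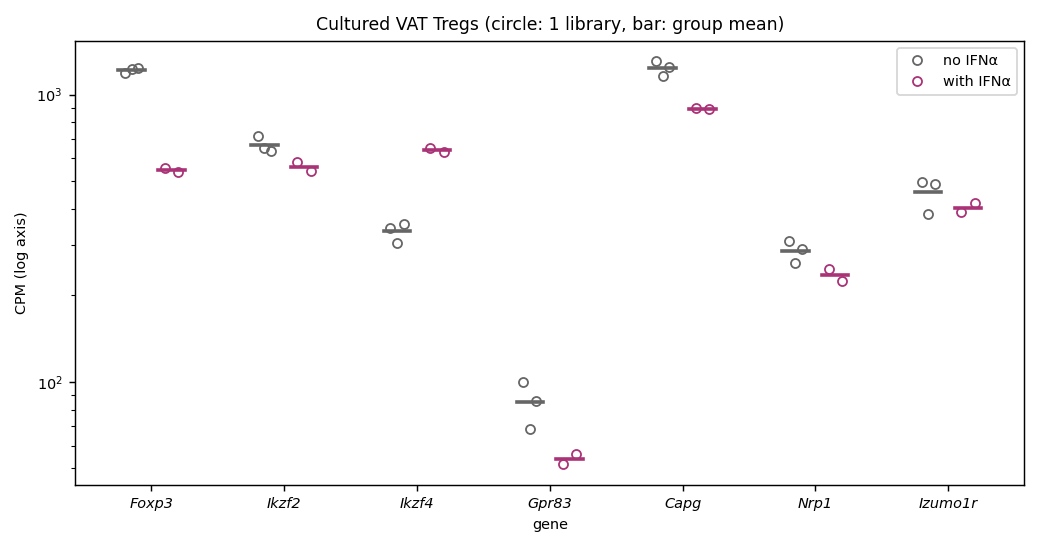
Level of the 7 genes in the 5 cultures of VAT Tregs, in CPM on a log axis, without (grey) and with IFNα (purple); each circle is 1 library and each bar a group mean. Foxp3 goes from 1186 CPM and above to 556 CPM and below, and Ikzf4 from 355 CPM and below to 631 CPM and above.

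Genes that work with these 7 were counted from lists. Of all genes, 2.34% rose and 1.86% fell with HFD as the mean of the VAT weeks, 4.31% rose and 4.93% fell at VAT week 16, 29.1% were higher and 30.0% lower in VAT than spleen without HFD, and 21.7% were called in either direction with IFNα. Each count in the lists stands beside these shares. The lists overlap, so a called gene can count in more than 1 of them. Satb1 stands among both the Foxp3 locus regulators and the genes that Foxp3 represses. Ctbp1 and Chd4 stand among both the regulators and the Ikaros partners. Of 20 Treg signature genes tested, 10 rose and 1 fell with HFD as the mean of the VAT weeks (median 0.28, against -0.01 for all genes). At week 16, 7 rose and 3 fell (median 0.31, against 0.02). Lrrc32, which encodes the surface carrier of latent TGF-β, was at 12.6 ± 3.42 CPM (SD, n = 2) with NCD and 185 ± 2.52 CPM (SD, n = 3) with HFD at week 16, a change of 3.75 ± 0.45 (edgeR adjusted p = 2.43e-05). Il2ra, the α chain of the IL-2 receptor, went from 994 ± 17.8 to 505 ± 53.9 CPM (-1.09 ± 0.16, edgeR adjusted p = 7.50e-05), and Socs2, a cytokine signalling inhibitor, fell by 1.19 on the log2 scale. Over all VAT diet weeks Il2ra was at 734 ± 172 CPM with NCD and 745 ± 223 CPM with HFD (SD, n = 11 each). Lrrc32 was at 58.7 ± 49.1 and 108 ± 56.9 CPM and Socs2 at 148 ± 25.8 and 124 ± 56.2 CPM in the same libraries. For the mean, Tnfrsf9 (0.67), Ecm1 (0.69) and Tnfrsf4 (0.51) had the smallest p. In spleen 2 of the 20 rose as the mean, against 0.613% of all genes, and 0 fell. Between the tissues 14 were higher and 4 lower in VAT (median 1.01, against -0.04), led by the coinhibitory receptor Ctla4 (2.7), the costimulatory receptor Icos (1.38) and Il2ra (1.44). With IFNα 10 rose and 3 fell (median 0.30, against 0.01).

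Of 27 regulators and cofactors of the Foxp3 locus, 7 rose and 1 fell with HFD in VAT at week 16 (median 0.15), against 4.31% and 4.93% of all genes, and 4 rose and 1 fell as the mean (median 0.11). The one that fell at both was Irf4, a factor of effector Tregs, from 282 ± 16.3 to 91.3 ± 24.9 CPM at week 16 (-1.74 ± 0.22, edgeR adjusted p = 1.59e-05). Stat5b, which carries the IL-2 signal, rose by 1.02 ± 0.18 and the zinc finger gene Zfp281 by 1.29 ± 0.19 at week 16. Between the tissues 9 were higher in VAT (29.1% of all genes), with Irf4 (2.37) and Gata3 (1.93) among them, and 10 lower (30.0%), led by Foxo1 (-1.51, median of the list 0.05). With IFNα 7 rose and 5 fell of 26 tested (median -0.07), where 21.7% of all genes were called.

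Of 13 tested genes that Foxp3 represses or that are low in Tregs, 5 rose and 0 fell with HFD in VAT at week 16 (median 0.36), against 4.31% and 4.93% of all genes. Satb1, a chromatin organizer, was at 18.4 ± 1.38 CPM with NCD and 151 ± 84.4 CPM with HFD (2.91 ± 0.50, edgeR adjusted p = 7.77e-04), Bcl2 rose by 2.01 and Lef1, a factor of resting T cells, by 1.08. As the mean of the weeks Satb1 rose (0.87) and Pde3b fell (-1.25). Pde3b was near the detection floor, at 2.15 ± 1.73 CPM with HFD and 4.55 ± 3.01 CPM with NCD (SD, n = 11 each). All 3 of Lef1 (-1.90), Actn1 (-4.39) and Bcl2 (-3.05) were lower in VAT than spleen without HFD, where 3 of the list were higher and 7 lower (median -1.90), against 29.1% and 30.0% of all genes. Actn1 was near the detection floor in these VAT libraries, at 1.61 ± 1.25 CPM (SD, n = 14). With IFNα 5 genes of the list rose and 0 fell of 9 tested (median 0.72), where 21.7% of all genes were called. Of 9 other Ikaros-family genes and partners, edgeR called 0 with diet in VAT at week 16 (2 at unadjusted p under 0.05, 0 called by DESeq2) and 0 as the mean (0 at unadjusted p under 0.05, 0 called by DESeq2). Unadjusted p was under 0.05 for 3072 of all 14164 genes at week 16 and for 2323 as the mean. Between the tissues 2 were higher in VAT, among them Ikzf3 (0.80), and 3 lower, among them Ikzf1 (-0.60) and Hdac1 (-0.26), and with IFNα 1 rose. Of 8 tested semaphorin and plexin partners of Nrp1, 2 fell as the VAT mean, Plxna3 (-0.89) and Plxna1 (-0.49), the latter also at week 16 (-1.51). Between the tissues 5 were higher in VAT, led by Plxna1 (2.54), Plxnd1 (1.98) and Tgfb1 (1.41), and 2 lower, and with IFNα 2 fell.

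The immediate early and heat shock list moved with both tissue and diet. Of its 20 genes 18 were higher and 1 lower in VAT than spleen without HFD (median 5.01), against 29.1% and 30.0% of all genes, led by the RNA decay factor Zfp36 (3.67), Junb (5.01) and the phosphatase gene Dusp1 (6.03). With HFD in VAT at week 16, 12 fell and 0 rose (median -1.34), against 4.93% and 4.31% of all genes, with Ier3 at -3.40, Zfp36 at -1.70 and Fosb at -2.71. As the mean 4 fell and 0 rose, led by Egr1 (-1.14), Klf6 (-0.60) and Fosb (-0.87), and with IFNα 3 rose and 3 fell of 16 tested.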

How the data were processed

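Polyadenylated RNA of 1000 sorted cells per library was copied to cDNA, amplified, cut with a transposase, amplified again over 18 PCR cycles and sequenced as read pairs of 38 bases, per the labels' protocols. The deposited values are raw read counts per gene symbol, made by the authors with STAR 2.7.3a and featureCounts on mm10, per the submitters' processing notes. The annotation release, strand setting and treatment of multiply matching reads were not given in the sources used here. Titles gave each library's group and replicate number, since spleen libraries also carry the VAT tissue label, and 0 columns were left unused. Of 55011 symbols 52936 (96.2%) matched GENCODE M21, which gave positions and exon lengths. Promoter sequences are those of RefSeq on GRCm38.p6.

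Testing of the counts used edgeR 4.0.16 in R 4.3.3, with TMM normalization, filterByExpr by group and robust quasi-likelihood models with 1 mean per group. VAT (14164 genes tested), spleen (14686), both tissues (15601) and cultures (12604) were fitted separately, for 23 comparisons, and all 7 members passed the filter in each fit. CPM is the count scaled to the library total, without TMM factors, and CPM per kb divides it by the exon length. The SE is the log2 fold change over the square root of F. Between 2 replicates the chi-square per degree of freedom was at least 4.13, so no library was taken as a duplicate of another. The fits were tested on simulated counts with 200 changed genes. For VAT HFD against NCD at week 16, 35 of 94 genes changed 2-fold and 60 of 98 changed 4-fold were called. In spleen at week 16 these were 34 of 97 and 59 of 98, so simulated diet changes of such size were often missed. For VAT against spleen without HFD they were 74 of 100 and 93 of 97, and for IFNα 66 of 100 and 89 of 98. In the order given, 2, 4, 7 and 9 unchanged genes were called. The changed genes were drawn at random from all genes tested, at any level. The share of changed genes was fixed, unlike the share called in the data. These rates therefore describe the simulated counts and need not hold for the 7 members.

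The alternatives tried were DESeq2 1.42.0, RLE normalization, no filter, a replicate block, fits restricted to the compared groups, a covariate (the mean of the heat shock and immediate early list), and leaving out each library. Means without week 16 and scaling by library totals only were chosen after seeing the data. The members and lists were chosen with earlier results of these data known. Named were the 7 members, the 3 genes most like each in group means, and from each list the 3 called genes with the smallest p in the VAT mean, VAT week 16 and tissue comparisons. The list of 21 Treg signature genes had 20 in the table. Detection floors cover counting error only, while SD and SE cover the spread between libraries.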

Additional observations from a re-analysis of the deposited data

Results flagged for a closer look

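The diet effect in VAT differed among weeks 2, 4, 8 and 16 for 4 of the 7 genes, by an edgeR test of equal weekly effects that called 6.42% of all genes. The adjusted p was 6.17e-05 for Ikzf4, 2.95e-04 for Izumo1r, 0.0168 for Nrp1 and 0.0235 for Capg. The calls of Nrp1 and Capg were lost without either NCD week 16 library, and 0 of the 7 were called with the immediate early and heat shock mean as a covariate. With that covariate 117 of all genes were called, against 910 without it. Ikzf4 stands out because its weekly effect went from -0.70 ± 0.19 at week 2, which did not pass, to 1.66 ± 0.22 at week 16, with the diet groups apart in CPM at both times.

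The diet effect also differed between VAT and spleen, by a test of the difference itself in edgeR. At week 8 the difference was 1.05 for Ikzf4 and 0.93 for Izumo1r (adjusted p = 0.0219 and 0.0134). At week 16 it was 2.05 for Izumo1r, 1.32 for Ikzf4 and -0.90 for Capg (5.10e-09, 4.87e-04 and 0.0167). As the mean of the weeks it was 0.85 for Izumo1r, 1.84 for Gpr83, 0.56 for Ikzf4 and -0.52 for Capg (8.46e-07, 0.0138, 0.0061 and 0.0101). For Capg the mean effect was -0.03 in VAT (adjusted p = 0.863) and 0.48 in spleen (0.0134), and the week 16 effect -0.45 in VAT (0.0242) and 0.43 in spleen (0.74). The difference of Gpr83 rests in part on 1 VAT library, as given above.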

How the results depend on the processing

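Of 1141 single-gene results under alternatives other than leaving out a library, 1068 kept direction and side of the threshold, 45 lost their call, 26 gained one and 2 reversed. The 2 reversals were Ikzf2 in VAT against spleen with the stress gene covariate, at -0.13 without HFD and -0.17 with it. With that covariate the members called were 0 in both tissue comparisons, 0 for the difference among weeks, 2 for VAT HFD week 16 against week 2, 0 for the spleen mean, and 1 for the difference between tissues at week 16 and as the mean. Over all genes the covariate left 6 and 11 called in the tissue comparisons and 117 for the difference among weeks. It left 173 for VAT HFD week 16 against week 2 and 4 for the spleen mean. For the difference between tissues it left 165 at week 16 and 150 as the mean. The main fit called 9221, 7398, 910, 1034, 137, 696 and 380 in the same order. The covariate follows tissue and week, and the cause of these losses was not tested. Without a filter the member counts were 1 for VAT NCD week 16 against week 0, 1 for spleen at week 2, 1 at week 8 and 2 as the mean, and 2, 1, 4 and 5 for the difference between tissues at weeks 2, 4, 8 and 16. Calls over all genes rose as well. For VAT NCD week 16 against week 0 they went from 101 in the main fit to 399. In spleen they went from 4, 0 and 137 to 85, 26 and 483. For the difference between tissues at weeks 2, 4 and 8 they went from 1, 80 and 71 to 211, 449 and 386. With DESeq2 the member counts were 1 for spleen at week 2 and 3 for the spleen mean, against 28 and 375 of all genes. With only the groups compared the member counts were 1 for VAT at week 8, 2 for NCD week 16 against week 0 and 2 for HFD week 16 against week 2, from fewer samples. That fit called 830 of all genes for NCD week 16 against week 0, where the main fit called 101. Without week 16 the member counts were 1 for the VAT mean and 0 for the mean difference between tissues, from fewer samples. Calls over all genes were then 122 and 42, where the main fit gave 595 and 380.

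Leaving out 1 library at a time gave 0 to 2 members called for VAT at week 8, 3 to 4 at week 16, 2 to 4 as the mean, 2 to 4 for the difference among weeks and 2 to 4 for HFD week 16 against week 2. It gave 0 to 2 for the spleen mean, 0 to 2, 2 to 4 and 3 to 4 for the difference between tissues at week 8, week 16 and as the mean, and 4 to 6 for IFNα. Of 1967 single-gene results 1909 were kept, 51 lost their call, 7 gained one and 0 reversed. A lone library left in an arm was taken to vary like those of the other groups.

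The labels give groups the same replicate numbers. With the replicate number as a block, 3 members were called for the VAT mean, 3 for HFD week 16 against week 2 and 5 for IFNα, and the other counts were unchanged. The numbers were not taken to pair the libraries, since most same-numbered pairs were at or under 0.1: the median correlation of deviations was 0.0048 between diets in VAT (10 pairs), 0.021 in spleen (11) and 0.0097 between tissues (24). Between diets, 2 pairs in spleen, both at week 16 (0.326 and 0.173), and 1 in VAT, at week 2 (0.129), were above 0.1. The 3 pairs of VAT with spleen at HFD week 16 were all above it (0.361, 0.142 and 0.286), while the 2 at NCD week 16 were at 0.0275 and 0.0186. With the block 3 members were again called for the difference between tissues at week 16. Over all genes the calls at VAT week 16 went from 1309 to 193 with the covariate and to 789 with only the groups compared, and those of VAT against spleen without HFD from 9221 to 6 with the covariate. Library totals alone also moved the share of higher calls from 41.9% to 66.4% for VAT HFD week 16 against week 2 and from 63.4% to 48.4% for NCD week 16 against week 0. Depth limits Gpr83 in VAT most, where 1 library held 3 counts.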

Other observations

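The cultured VAT Tregs without IFNα can be set beside the ex vivo VAT Tregs without HFD only as values, since mouse line, IL-33 treatment, sort and culture all differed. Ikzf4 was at 335 ± 26 CPM (SD, n = 3) in culture and 46.3 ± 13.2 CPM (SD, n = 14) ex vivo. Izumo1r was at 457 ± 62.0 and 142 ± 30.4 CPM, and Gpr83 at 84.8 ± 15.9 and 9.35 ± 5.44 CPM. Each of the 3 genes was thus higher in every culture library than in every one of these ex vivo libraries. Ikzf2 lay on the other side, at 669 ± 44.6 CPM in culture and 1481 ± 167 CPM ex vivo, and Foxp3 was at 1217 ± 27.6 and 968 ± 47.1 CPM.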
